A study of Mus musculus with 3 samples.

Results

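Messenger RNA of the heat shock response and of protein folding in the endoplasmic reticulum (ER) was followed in activated CD4+CD25- T cells across 3 cytokine conditions. The genes were given as a list of 35 names, and each was represented by its brightest probe set among those annotated to that gene alone. Of the 35 genes, 33 had such a probe set, out of 18193 named genes on the arrays. Hsp90ab1 and Hsf1 were not analysed here.

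The donors were female mice of BALB/c background, 6 to 8 weeks old, and the cells came from their lymph node and spleen. These mice lacked both Stat6 and T-bet, so every culture carried both deletions. For 2 days the cells received anti-CD28 at 1 µg/ml on top of anti-CD3 at 5 µg/ml bound to the plate. One culture also received IL-6 at 10 ng/ml and TGFβ at 5 ng/ml (IL-6/TGFβ), another IL-6 and IL-23 at 10 ng/ml each (IL-6/IL-23), and the last TGFβ alone at 5 ng/ml (TGFβ). Each condition has 1 array, the labels give no number of mice per culture, and all values below describe these 3 arrays with no p-value.

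Chaperones help proteins reach and keep their folded shape. In the cytosol, HSP70 proteins work with J proteins, which deliver clients, and with HSP110 proteins, which exchange the nucleotide, and then pass some clients to HSP90. Heat and other stress raise the inducible members of this system through the factor HSF1. In the ER, the HSP70 protein BiP, the lectins calreticulin and calnexin and the protein disulfide isomerases fold secreted and membrane proteins. When unfolded protein builds up there, the sensors IRE1α, ATF6 and PERK switch on the unfolded protein response, in which XBP1 and ATF6 raise chaperone and degradation genes. Activated T cells grow, divide and secrete cytokines, and both systems are known to be in use in them.

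Levels are quantile-normalized intensities in arbitrary units, and ratios are on the log2 scale. A level is compared between arrays for 1 probe set, never between genes. The floor, below which values have no order, lay at an intensity of 51.5, which 95% of 115 probe sets for genes of other tissues did not exceed. Where 1 of the arrays compared is at the floor, the ratio is a bound. A gene was called higher or lower when it was at least 2-fold apart with the brighter array above the floor. The only error that can be estimated is the spread of ratios between probe sets of the same gene, with an SD of 0.23 for IL-6/TGFβ relative to TGFβ, 0.29 for IL-6/TGFβ relative to IL-6/IL-23 and 0.30 for IL-6/IL-23 relative to TGFβ. It leaves out differences between cultures, mice and arrays. The comparisons share arrays, so their ratios are not independent of each other.

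As deposited, the arrays differed in overall brightness, with medians of 28.1 for IL-6/TGFβ, 17.8 for IL-6/IL-23 and 35.8 for TGFβ over 45037 probe sets. Spiked controls for hybridization (18 probe sets) had medians of 825, 626 and 1072 in the same order of arrays. Transferrin receptor probes toward the 3' end read 2.50, 2.65 and 2.54 times those toward the 5' end, a sign of RNA quality. The same ratio was 1.24, 1.17 and 1.215 for actin and 0.79, 0.80 and 0.85 for Gapdh. All 10 measured T cell identity genes, Cd3d, Cd3e and Cd4 among them, were above the floor on every array. Among all genes above the floor, the calls split into 258 higher and 203 lower for IL-6/TGFβ relative to TGFβ, 372 and 344 for IL-6/TGFβ relative to IL-6/IL-23, and 345 and 331 for IL-6/IL-23 relative to TGFβ. Median scaling in place of quantile normalization turned these splits to 199 and 253, 289 and 487, and 382 and 331. Without scaling they were 126 and 700, 1089 and 130, and 81 and 3283.

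Few members were called in any comparison. The range of a gene over the 3 arrays had a median of 0.42 log2 units for members and 0.42 for all genes. Between IL-6/TGFβ and TGFβ, 0 of 32 members above the floor were called, and the ratios lay between -0.57 and 0.48. Over all 9345 genes above the floor there, 2.76% were called higher and 2.17% lower. At 1.5-fold, 0 of these members were higher and 0 lower, where 8.1% and 6.84% of all genes were. For IL-6/TGFβ relative to IL-6/IL-23, 1 of 33 members was called, Hspa1b, and it was lower, where 3.62% of all genes were called lower and 3.91% higher. For IL-6/IL-23 relative to TGFβ, 2 of 33 members were called, Hspa1b and Atf6, both higher, where 3.67% of all genes were called higher and 3.52% lower. The shares called at 2-fold are near the background. With 1 array per condition no test could be run, and a count of 0 says only that no member passed the size rule.

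Smaller differences leaned one way. Of the 33 members, 23 had their highest level on the IL-6/IL-23 array, against 41.6% of all 9633 genes above the floor on at least 1 array. For IL-6/IL-23 relative to TGFβ, 24 of 33 members had a ratio above 0 and 9 below, against 56.1% and 43.9% of all genes, and the median was 0.21 against 0.06. For IL-6/TGFβ relative to IL-6/IL-23, 24 of 33 had a ratio below 0 and 9 above, against 53.3% and 46.6% of all genes, and the median was -0.18 against -0.03. For IL-6/TGFβ relative to TGFβ, 15 of 32 members lay above 0 and 16 below, against 53.0% and 46.9% of all genes, and the median was 0.00 against 0.02. Among all 2106 genes with a mean level above 1000, the median was 0.04 for IL-6/IL-23 relative to TGFβ and -0.04 for IL-6/TGFβ relative to IL-6/IL-23. The lean toward the IL-6/IL-23 array was smaller when all probe sets of a gene were averaged: 17 of 32 members were then highest there, against 39.3% of genes, and the median for IL-6/IL-23 relative to TGFβ was 0.05 against 0.03. Without scaling, 2 of 32 members were highest on the IL-6/IL-23 array, against 3.18% of genes. The IL-6/IL-23 array was also the dimmest as deposited, and the part of brightness in this lean was not tested.

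**Figure D1:**
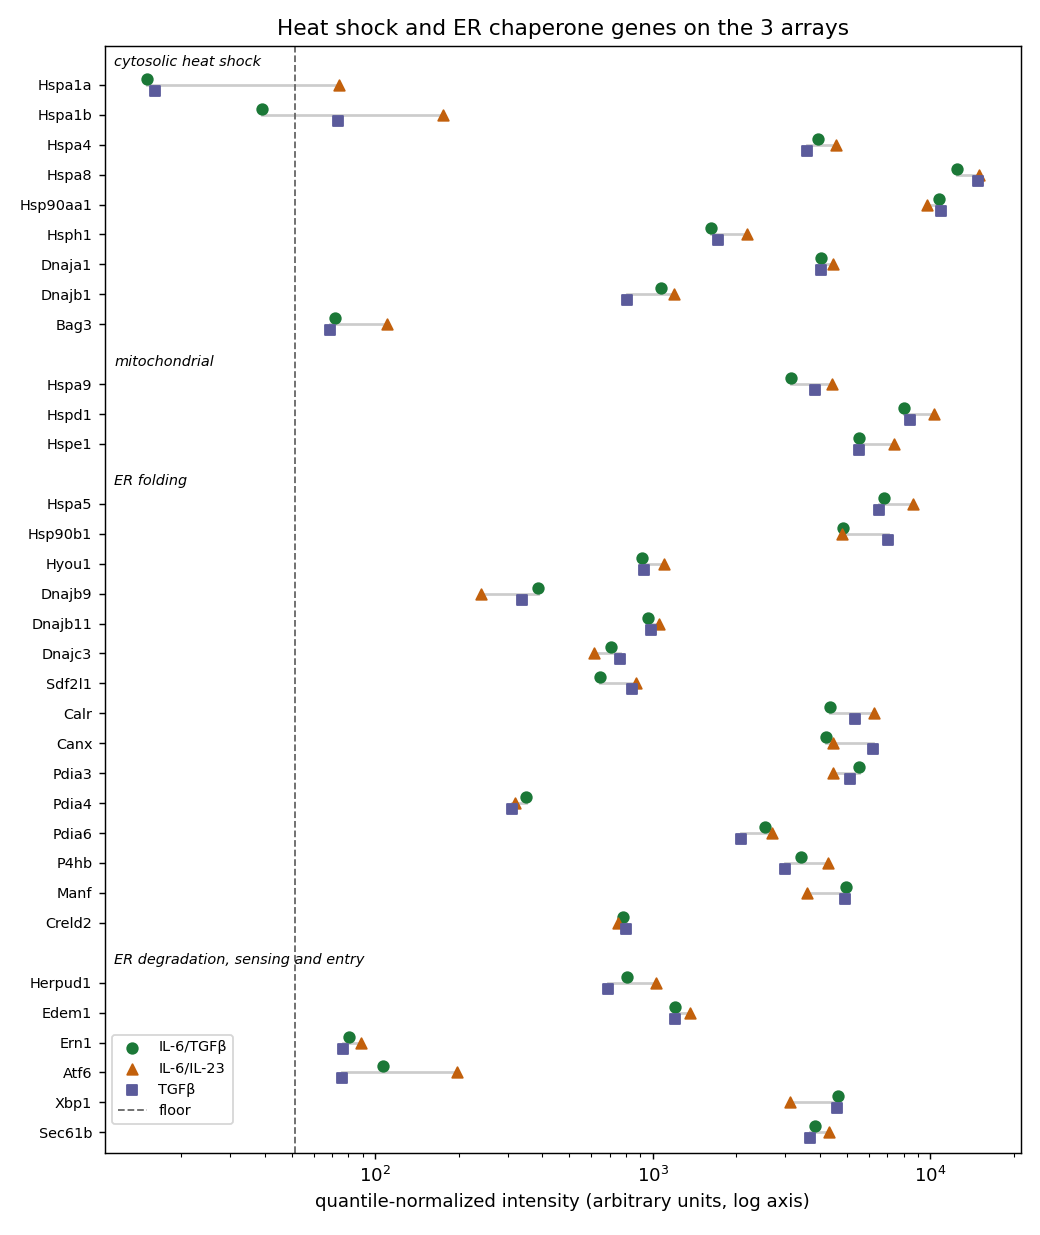
Level of each of the 33 measured genes on the IL-6/TGFβ array (circles), the IL-6/IL-23 array (triangles) and the TGFβ array (squares), in quantile-normalized intensity on a log axis, with the floor of 51.5 as a dashed line and symbols shifted vertically. Most genes have their 3 symbols close together, and Hspa1a, Hspa1b, Atf6 and Bag3 extend to the right on the IL-6/IL-23 array.

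**Figure D2:**
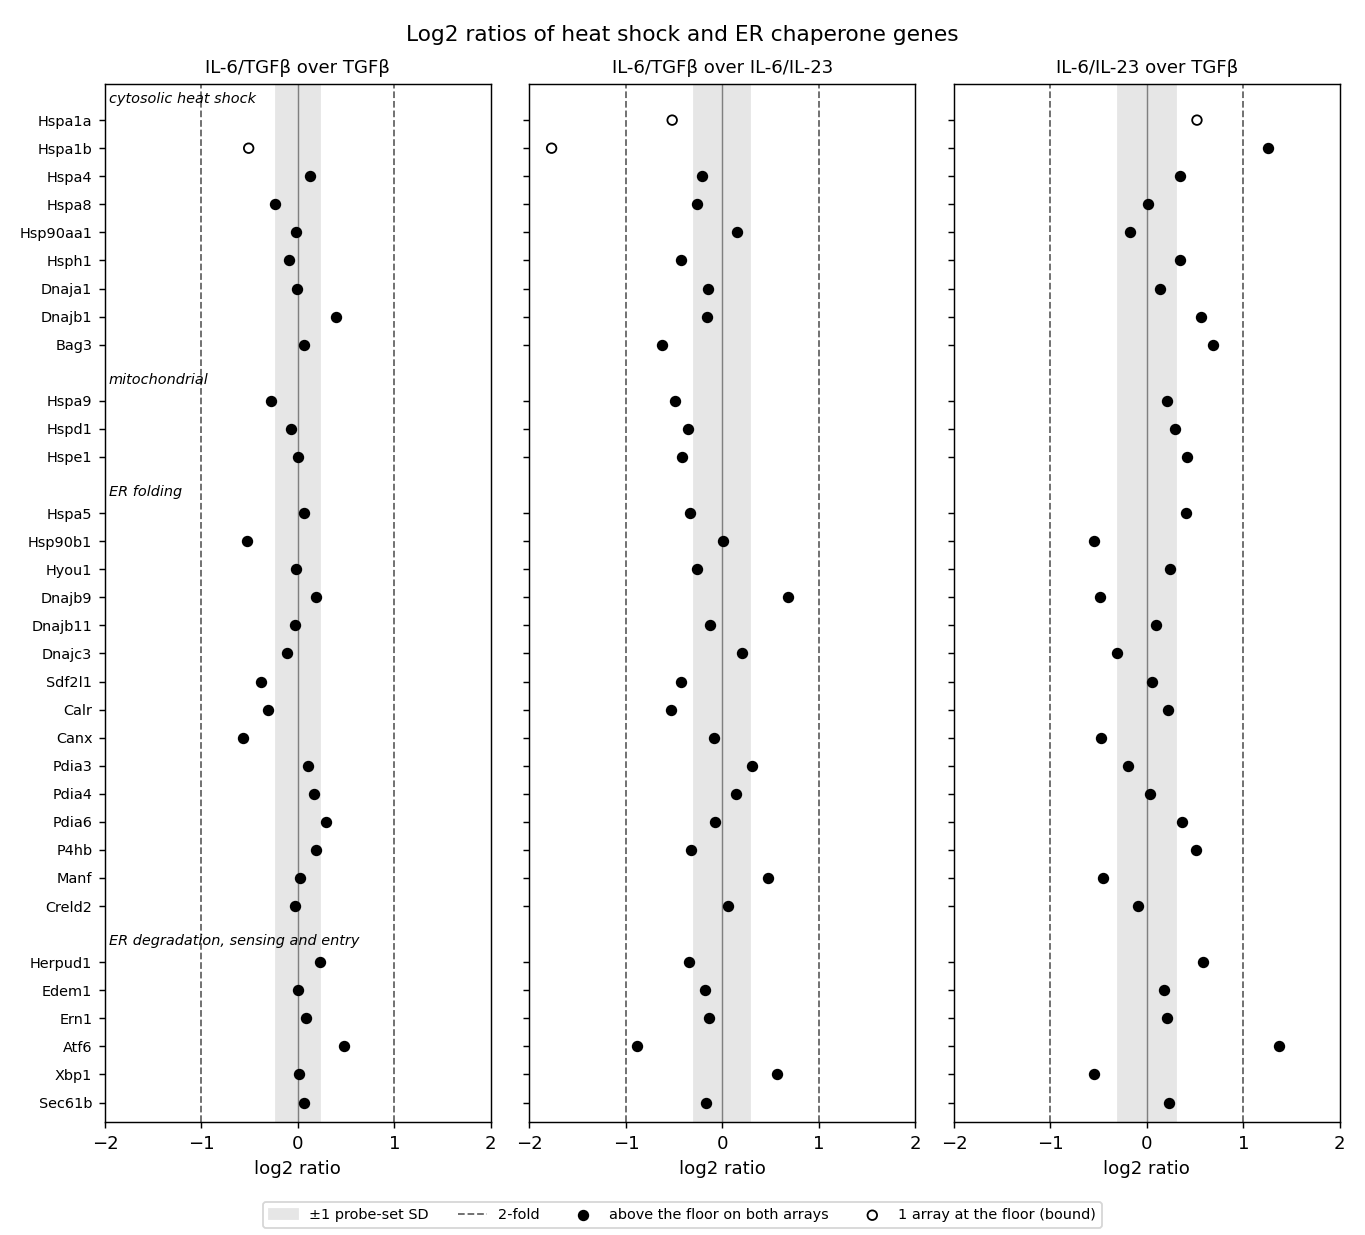
Log2 ratio of each gene in the 3 comparisons, one panel each, with bounds as open points, 1 SD of the probe-set spread on either side of 0 as a grey band and 2-fold as dashed lines. The points past the dashed lines are Hspa1b in the middle panel and Hspa1b and Atf6 in the right panel.

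Among the cytosolic chaperones, the stress-inducible HSP70 genes Hspa1a and Hspa1b stood out. Hspa1b read 39.2 with IL-6/TGFβ, 175 with IL-6/IL-23 and 73.2 with TGFβ. It was below the floor with IL-6/TGFβ and highest with IL-6/IL-23. Relative to IL-6/IL-23, its level under IL-6/TGFβ was at least 3.40-fold lower. Under IL-6/IL-23 it was 2.39-fold higher than with TGFβ, a log2 ratio of 1.26 that fell short of the call without scaling, at 0.21. All 3 probe sets of Hspa1b were brightest on the IL-6/IL-23 array, with log2 ratios of 0.93 to 1.26 relative to TGFβ, where the value 0.95 is a bound. Hspa1a read 15.0 with IL-6/TGFβ, 73.8 with IL-6/IL-23 and 16.0 with TGFβ. The IL-6/IL-23 array alone had it above the floor, so it was at least 1.43-fold higher there than on the other arrays. Without scaling, Hspa1a read 49.6 there and less on the other arrays, below the floor of 55.8 for that setting on every array. Raising the floor to the 99th percentile of the tissue-restricted probe sets, an intensity of 176, removed both calls of Hspa1b, and lowering it to the 90th percentile, 31.9, added Hspa1a to the called genes in both comparisons.

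These genes are near-identical neighbours, and a probe set for one can bind the transcript of the other, so their values are uncertain as separate measurements. Their promoters show how alike they are. The 250 bases before the start of each gene, from RefSeq on GRCm38.p6, differ at 3 positions and are 98.8% identical. In both, a pair of inverted GAA units of the kind HSF1 binds (GAANNTTC, in capitals) begins 104 bases before the start. Hspa1a is shown at chr17:34972157-34972406 and Hspa1b at chr17:34959239-34959488, both on the minus strand.
Hspa1a: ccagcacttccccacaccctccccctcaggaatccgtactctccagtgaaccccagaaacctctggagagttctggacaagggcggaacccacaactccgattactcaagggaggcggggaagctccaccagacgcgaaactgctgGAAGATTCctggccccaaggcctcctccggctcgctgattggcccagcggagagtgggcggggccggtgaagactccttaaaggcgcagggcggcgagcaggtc
Hspa1b: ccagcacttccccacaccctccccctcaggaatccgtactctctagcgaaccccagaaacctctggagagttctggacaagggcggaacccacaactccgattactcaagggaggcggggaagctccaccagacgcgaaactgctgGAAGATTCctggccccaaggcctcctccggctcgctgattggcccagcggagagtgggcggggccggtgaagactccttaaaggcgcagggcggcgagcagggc

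By their brightest probe sets, the other cytosolic HSP70, HSP90 and HSP110 genes were within 1.5-fold in every comparison. Hspa8, the constitutive HSP70, read 12494 with IL-6/TGFβ, 14946 with IL-6/IL-23 and 14793 with TGFβ. A further probe set of Hspa8 read 6344, 4798 and 13482, with ratios of -1.09 for IL-6/TGFβ relative to TGFβ and -1.49 for IL-6/IL-23 relative to TGFβ. The ratio of the brightest one in the second of these pairs was 0.01, and 0.81 with median scaling, so the level of Hspa8 is not settled here. Hsp90aa1, the inducible form of cytosolic HSP90, read 10742, 9707 and 10916 in the same order, a range of 0.17 log2 units over the arrays. The brightest normalized value on any array was 19391, so both lay near the top of the scale, where compression of ratios was not tested. The HSP110 exchange factors were highest with IL-6/IL-23 by their brightest probe sets. Hspa4 read 3932 with IL-6/TGFβ, 4563 with IL-6/IL-23 and 3597 with TGFβ, and Hsph1 read 1614, 2177 and 1721. Their ratios for IL-6/IL-23 relative to TGFβ were 0.34 each, just outside the probe-set SD. For this pair, the further probe set of Hsph1 gave 0.00, and those of Hspa4 above the floor gave -0.21 and -1.36.

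The J proteins and the cochaperone BAG3 also had their highest level with IL-6/IL-23 by their brightest probe sets. Dnajb1, a J protein of the heat shock response, read 1068 with IL-6/TGFβ, 1195 with IL-6/IL-23 and 809 with TGFβ. Its ratio was 0.40 for IL-6/TGFβ relative to TGFβ and 0.56 for IL-6/IL-23 relative to TGFβ. Its further probe set gave 0.27 and 0.20 and was highest with IL-6/TGFβ, at 1033 against 984 with IL-6/IL-23. Dnaja1, a further J partner of HSP70, read 4022, 4466 and 4049.9, all within the spread. Its further probe sets read 816, 616 and 1376, and 959, 1090 and 1147, so both were highest with TGFβ. Bag3, which steers HSP70 clients to autophagy, read 71.55, 110.6 and 68.4, close to the floor on every array. Its ratio of 0.69 for IL-6/IL-23 relative to TGFβ was 1.62-fold and passed 1.5-fold but not 2-fold. At 1.5-fold, 3 members were higher in that comparison, Bag3, Hspa1b and Atf6, and 0 were lower, against 10.6% of all genes higher and 8.96% lower.

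Within the 9 measured cytosolic members, 8 had a ratio above 0 by their brightest probe sets for IL-6/IL-23 relative to TGFβ, with a median of 0.34. For IL-6/TGFβ relative to IL-6/IL-23, 8 of 9 lay below 0, with a median of -0.26. Of the 8 above the floor for IL-6/TGFβ relative to TGFβ, 3 lay above 0, with a median of -0.02. Hsp90aa1, by its brightest probe set, was the member on the other side in both of the first comparisons. Its further probe sets above the floor had the signs of the other members' brightest ones. They gave 0.06 and 0.20 for IL-6/IL-23 relative to TGFβ, and -0.07 and -0.25 for IL-6/TGFβ relative to IL-6/IL-23. Further probe sets of other members were split for IL-6/IL-23 relative to TGFβ. Below 0 were those of Hspa8 (-1.49 and -0.18), Hspa4 (-1.36 and -0.21) and Dnaja1 (-1.16 and -0.07). That of Hsph1 gave 0.00. Above 0 were those of Hspa1b (0.93, and 0.95 as a bound), Dnajb1 (0.20) and another of Hspa8 (0.12).

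By their brightest probe sets, all 3 mitochondrial chaperones were highest on the IL-6/IL-23 array. Hspd1, which encodes the folding chamber HSP60, read 8039 with IL-6/TGFβ, 10319 with IL-6/IL-23 and 8419 with TGFβ. Hspe1, its lid HSP10, read 5535, 7385 and 5536. Hspa9, the mitochondrial HSP70 that pulls proteins through the import channel, read 3149.6, 4437 and 3826. The 3 genes were highest with IL-6/IL-23, by 0.36 to 0.49 log2 units over IL-6/TGFβ, which is more than the probe-set SD of 0.29, and by 0.21 to 0.42 over TGFβ, where Hspe1 alone exceeded the SD of 0.30. A further probe set of Hspe1 read 2594 with IL-6/TGFβ, 4283 with IL-6/IL-23 and 5301 with TGFβ, so it put TGFβ highest. A further probe set of Hspa9, at 2754, 2884 and 3434, also did. None reached 2-fold with its brightest probe set.

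Hspd1 and Hspe1 are transcribed in opposite directions from a shared control region. In it, GAA units in alternating directions follow each other without a break, a form of heat shock element. The 30 bases at chr1:55088053-55088082 of GRCm38.p6, on the strand of Hspe1, hold 3 overlapping matches to GAANNTTC or TTCNNGAA, shown together in capitals.
Hspe1: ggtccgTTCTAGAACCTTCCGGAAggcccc

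Across the members, 27 genes had 32 promoter windows in the RefSeq table. Of these windows, 7 held GAANNTTC or TTCNNGAA on either strand of the 250 bases. They belong to 6 genes: Dnaja1, Hspa1a, Hspa1b, Hspd1, Hspe1 and Hsph1. All 6 were highest on the IL-6/IL-23 array by their brightest probe sets, as were 23 of all 33 members. Further probe sets of Hspe1 and Dnaja1 were highest with TGFβ instead, and that of Hsph1 gave 0.00 for IL-6/IL-23 relative to TGFβ. These short motifs can overlap each other, and 12.8% of all 32851 promoter windows held at least 1 of them. A match is a run of letters and not a measured binding site.

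The large chaperones of the ER lumen did not move as a block. Hspa5, which encodes BiP, read 6815 with IL-6/TGFβ, 8652 with IL-6/IL-23 and 6519 with TGFβ, a ratio of 0.41 for IL-6/IL-23 relative to TGFβ. A further probe set of Hspa5 gave -0.32 and another 0.42. Hsp90b1, the ER form of HSP90, read 4843 with IL-6/TGFβ, 4795 with IL-6/IL-23 and 7006 with TGFβ. It was lower on both arrays with IL-6 than with TGFβ alone, by ratios of -0.53 and -0.55, and its further probe set gave 0.20 and -0.04. Hyou1, an ER exchange factor of the HSP110 type, read 913, 1095.5 and 928, within the spread in all 3 comparisons. A further probe set of Hyou1 read 362, 282 and 431, outside the spread in each, with a ratio of -0.61 for IL-6/IL-23 relative to TGFβ.

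The lectin chaperones hold newly made glycoproteins. Canx, the membrane-bound calnexin, read 4188 with IL-6/TGFβ, 4473 with IL-6/IL-23 and 6217 with TGFβ. Its ratio for IL-6/TGFβ relative to TGFβ was -0.57, and all 3 of its probe sets were brightest with TGFβ. Calr, the soluble calreticulin, read 4334, 6243 and 5366, and its ratio for IL-6/TGFβ relative to IL-6/IL-23 was -0.53. The further probe sets of Calr gave -0.19 and 0.04 for the same pair, so the size of that difference rests on 1 probe set.

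The ER members were compared with the letters of their promoters because ER chaperone genes are known for a shared control element, the ER stress element, in which NF-Y binds a CCAAT box and ATF6 or XBP1 a CCACG box. CCAAT and CCACG spaced by 9 bases of any kind were found on either strand in 0.113% of all promoter windows and in 7 of the 32 member windows. These belong to 7 members: Calr, Canx, Creld2, Dnajc3, Hsp90b1, Hspa5 and Pdia6. The related element, ATTGG and CCACG spaced by 1 base, was found in 0.0304% of windows and in 1 member, Herpud1. The element TGACGTGG was found in 0.563% of windows and in 0 members. The matches are in capitals below, and the match of Creld2 and the downstream one of Hsp90b1 read on the opposite strand. The stretches lie at chr2:34772004-34772063 (Hspa5, plus strand), chr10:86705533-86705656 (Hsp90b1, minus), chr12:17266470-17266529 (Pdia6, plus), chr14:118937806-118937865 (Dnajc3, plus), chr15:88819499-88819558 (Creld2, plus) and chr8:94386352-94386411 (Herpud1, plus) of GRCm38.p6.
Hspa5: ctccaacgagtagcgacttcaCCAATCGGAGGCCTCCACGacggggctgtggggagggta
Hsp90b1: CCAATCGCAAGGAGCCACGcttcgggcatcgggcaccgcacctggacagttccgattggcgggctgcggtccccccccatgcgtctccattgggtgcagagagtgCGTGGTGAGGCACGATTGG
Pdia6: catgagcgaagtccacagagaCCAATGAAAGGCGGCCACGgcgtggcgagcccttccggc
Dnajc3: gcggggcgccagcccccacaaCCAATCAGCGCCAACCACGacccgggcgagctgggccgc
Creld2: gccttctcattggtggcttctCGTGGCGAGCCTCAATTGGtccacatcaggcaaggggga
Herpud1: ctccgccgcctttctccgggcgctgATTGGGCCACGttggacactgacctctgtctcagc

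By their brightest probe sets, the 7 genes with the first element were not highest on the same array. Hspa5, Pdia6 and Calr were highest with IL-6/IL-23, as was Herpud1 with the related element, and Hsp90b1, Canx, Dnajc3 and Creld2 were highest with TGFβ. Further probe sets of Calr and 1 of Hspa5 were highest with TGFβ instead, and those of Hsp90b1 and Herpud1 with IL-6/TGFβ. Dnajc3 had a further probe set highest with IL-6/IL-23 (254.7) and another highest with IL-6/TGFβ (593.8). None of these genes passed 2-fold with its brightest probe set.

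Dnajb9, which encodes an inducible J protein of BiP, read 385 with IL-6/TGFβ, 240.2 with IL-6/IL-23 and 337 with TGFβ. It was lowest with IL-6/IL-23, with a ratio of 0.68 for IL-6/TGFβ relative to IL-6/IL-23, and it was the 1 member that was 1.5-fold higher there, where 10.4% of all genes were. The members 1.5-fold lower in that pair were Hspa1b, Bag3 and Atf6, 3 of 33 against 11.0% of all genes. Dnajb11 read 963.5, 1052 and 984, within the spread throughout. Dnajc3, which also lowers the activity of PERK, read 704, 614 and 759.6. Sdf2l1, which works with Dnajb11, read 647.5, 871 and 839.8, so it was lowest with IL-6/TGFβ, by 0.38 to 0.43 log2 units.

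The disulfide isomerases form and shuffle the bonds between cysteines. Their ratios for IL-6/TGFβ relative to TGFβ were above 0 in 4 of 4, between 0.10 and 0.29, of which Pdia6 alone exceeded the SD of 0.23. P4hb, the classical isomerase, read 3408 with IL-6/TGFβ, 4264.5 with IL-6/IL-23 and 2988 with TGFβ, 1.43-fold higher with IL-6/IL-23 than with TGFβ. Pdia6 read 2538, 2682 and 2081. Pdia3, the isomerase that works with calnexin and calreticulin, read 5509, 4453 and 5126, lowest with IL-6/IL-23. Pdia4 read 349, 318 and 310.5, within the spread throughout.

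Manf and Creld2 encode small ER proteins that ER stress induces and that can be secreted. Manf read 4982 with IL-6/TGFβ, 3601.5 with IL-6/IL-23 and 4922 with TGFβ, so it was lowest with IL-6/IL-23 by 0.45 to 0.47 log2 units. Creld2 read 781, 747 and 798, and its range over the 3 arrays, 0.09, was the smallest of all members. Over the 15 ER folding members together, 8 lay above 0 and 7 below for IL-6/IL-23 relative to TGFβ, with a median of 0.03, and 0 were called in any comparison.

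Of the ER stress sensors, Atf6 was the member with the largest ratio for IL-6/IL-23 relative to TGFβ. ATF6 is a membrane protein that is cut under stress and then acts as a transcription factor. Atf6 read 106 with IL-6/TGFβ, 196 with IL-6/IL-23 and 76.1 with TGFβ. It was 2.58-fold higher with IL-6/IL-23 than with TGFβ, and its ratio for IL-6/TGFβ relative to IL-6/IL-23 was -0.88, short of 2-fold. The 3 probe sets of Atf6 gave 1.29 (a bound), 1.35 and 1.37 for IL-6/IL-23 relative to TGFβ, and -0.97, -1.28 and -0.88 for IL-6/TGFβ relative to IL-6/IL-23. All 3 were therefore highest with IL-6/IL-23. Its levels were dim, and the call was lost with the floor at 176 and without scaling, where the ratio was 0.33. Ern1, which encodes the sensor IRE1α, read 80.55, 88.5 and 76.5, just above the floor and within the spread.

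Xbp1 went the other way. Its mRNA is spliced by IRE1α to encode an active transcription factor, and the deposited values do not separate the spliced form. Xbp1 read 4639 with IL-6/TGFβ, 3129 with IL-6/IL-23 and 4596 with TGFβ. It was lowest with IL-6/IL-23, with a ratio of 0.57 for IL-6/TGFβ relative to IL-6/IL-23 and -0.55 for IL-6/IL-23 relative to TGFβ. All 4 of its probe sets had the same signs in these pairs, from 0.36 to 0.84 and from -1.11 to -0.33. Xbp1 is known to be high in plasma cells. Of the B cell and plasma cell markers, Cd79a, Cd79b, Pax5 and Blnk were below the floor on every array. Ighm, the heavy chain gene of IgM, was above it on all, at 417 with IL-6/TGFβ, 392 with IL-6/IL-23 and 649.6 with TGFβ. Its ratio for IL-6/IL-23 relative to TGFβ was -0.73, the same sign as that of Xbp1, and for IL-6/TGFβ relative to IL-6/IL-23 it was 0.09. Sdc1, a plasma cell marker, had the opposite sign to Xbp1 in both pairs, at 0.71 (a bound) and -0.63 in the same order. The 8 measured markers summed to 695, 663 and 858, values below the floor included, and their part in the level of Xbp1 was not tested. In such bulk samples, fewer cells of a type and less RNA per cell cannot be told apart.

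The degradation and translocon genes varied modestly. Herpud1, which helps assemble the degradation complex of the ER membrane, read 807 with IL-6/TGFβ, 1029 with IL-6/IL-23 and 687 with TGFβ, a ratio of 0.58 for IL-6/IL-23 relative to TGFβ. Its further probe set gave 0.29 for that pair. Edem1, which passes misfolded glycoproteins to degradation, read 1202, 1364 and 1202. Sec61b, a subunit of the channel through which proteins enter the ER, read 3831, 4301 and 3672. Both lay within the spread in every comparison.

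Further probe sets of the same genes set a limit on all of these small ratios. Among members with more than 1 probe set above the floor on both arrays, a further probe set had the sign of the brightest one in 25 of 34 cases for IL-6/TGFβ relative to TGFβ, 19 of 35 for IL-6/TGFβ relative to IL-6/IL-23 and 18 of 35 for IL-6/IL-23 relative to TGFβ. Over all genes the shares were 64.9%, 63.8% and 62.4%. For IL-6/IL-23 relative to TGFβ, 4 further probe sets of members were at least 2-fold lower while the brightest one was not. They belong to Hspa8 (-1.49, against 0.01), Hspa4 (-1.36, against 0.34), Dnaja1 (-1.16, against 0.14) and Xbp1 (-1.11, against -0.55). In the ratio of IL-6/TGFβ to TGFβ, further probe sets of Dnajc3 (-1.15), Hspa8 (-1.09) and Hspe1 (-1.03) were at least 2-fold lower. With probe sets ending in _s_at or _x_at left out, a choice made after seeing the data, Hspa8 and Hspe1 were called lower there. Hspa8 was then called lower for IL-6/IL-23 relative to TGFβ as well. Of all genes, 2.21% and 3.48% were called lower in these comparisons under that choice. For IL-6/TGFβ relative to IL-6/IL-23, further probe sets of Atf6 (-1.28) and Hspa9 (169 with IL-6/TGFβ against 338 with IL-6/IL-23) were at least 2-fold lower. The endings _s_at and _x_at mark probes that match several transcripts.

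**Figure D3:**
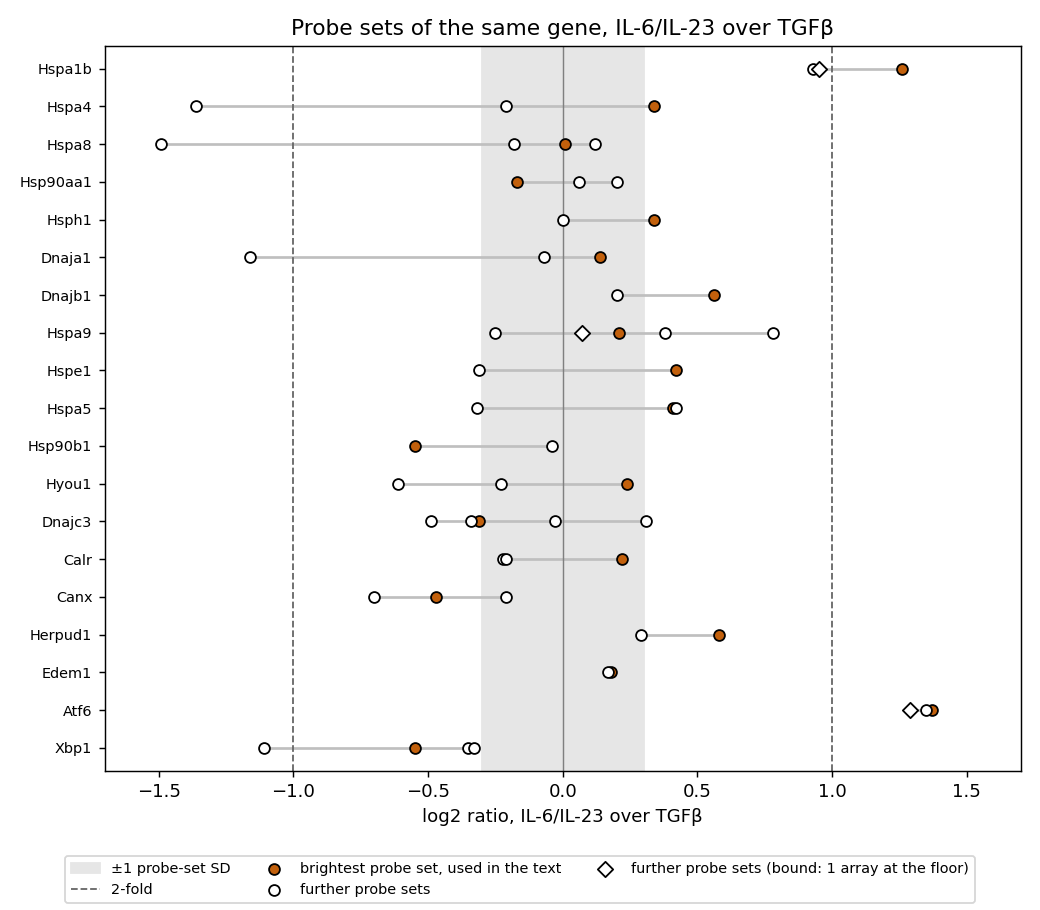
Log2 ratio for IL-6/IL-23 relative to TGFβ of every probe set above the floor on at least 1 array, for the genes with more than 1, with the probe sets used in the text filled, further ones open and bounds as diamonds. The 3 points of Atf6 lie together between 1.29 and 1.37, while those of Hspa8 extend to -1.49 and those of Hspa4 to -1.36.

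Of other genes of protein folding, from 9 lists, few were called. Of 107 measured genes, 0 of 99 above the floor were called for IL-6/TGFβ relative to TGFβ, 2 of 99 for IL-6/TGFβ relative to IL-6/IL-23 and 1 of 100 for IL-6/IL-23 relative to TGFβ, where 4.93%, 7.53% and 7.19% of all genes were called in either direction. Bright genes were called less often than all genes: of the 2106 whose mean level exceeded 1000, the called ones numbered 50, 80 and 77. Pfdn2, a subunit of prefoldin, which hands new proteins to the cytosolic chaperonin, was 2.33-fold lower under IL-6/TGFβ than under IL-6/IL-23 (639.8 against 1490.4). Selenos, a selenoprotein of the ER degradation complex, was 2.13-fold lower in the same pair (792 against 1685). Dnajc1, an ER J protein, was 2.21-fold lower with IL-6/IL-23 than with TGFβ (185 against 409). All 8 measured subunits of the CCT chaperonin, which folds actin and tubulin, were within 1.5-fold in every comparison. Hspb1, Hspb8, Cryab, Hsf2 and Hsf4, the small heat shock proteins and other heat shock factors, were below the floor on every array.

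A pair of these lists leaned toward the IL-6/IL-23 array without any gene reaching 2-fold. All 7 mitochondrial chaperones and proteases had a ratio above 0 for IL-6/IL-23 relative to TGFβ, with a median of 0.36, and below 0 for IL-6/TGFβ relative to IL-6/IL-23, with a median of -0.30. Of 6 genes of the PERK branch, 5 lay above 0 for IL-6/IL-23 relative to TGFβ (median 0.44) and 5 below 0 for IL-6/TGFβ relative to IL-6/IL-23 (median -0.50). Of all genes, 56.1% lay above 0 in the first comparison (median 0.06) and 53.3% below 0 in the second (median -0.03). List genes were read by their brightest probe sets, and their further probe sets were not compared. The 4 genes of this branch given here were chosen after their values were seen. Trib3, a target of the PERK branch, read 97.2 with IL-6/TGFβ, 157 with IL-6/IL-23 and 95.95 with TGFβ. Ppp1r15a, which ends the block of translation, read 171, 261 and 159. Atf4, the transcription factor of the branch, read 2520.1, 3296 and 2639. Eif2ak3, the gene of PERK itself, was on the other side and read 508.5, 370.3 and 427. The 15 genes of ER translocation and signal peptide cleavage had a median of -0.05 for IL-6/IL-23 relative to TGFβ and 0.17 for IL-6/TGFβ relative to IL-6/IL-23.

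**Figure D4:**
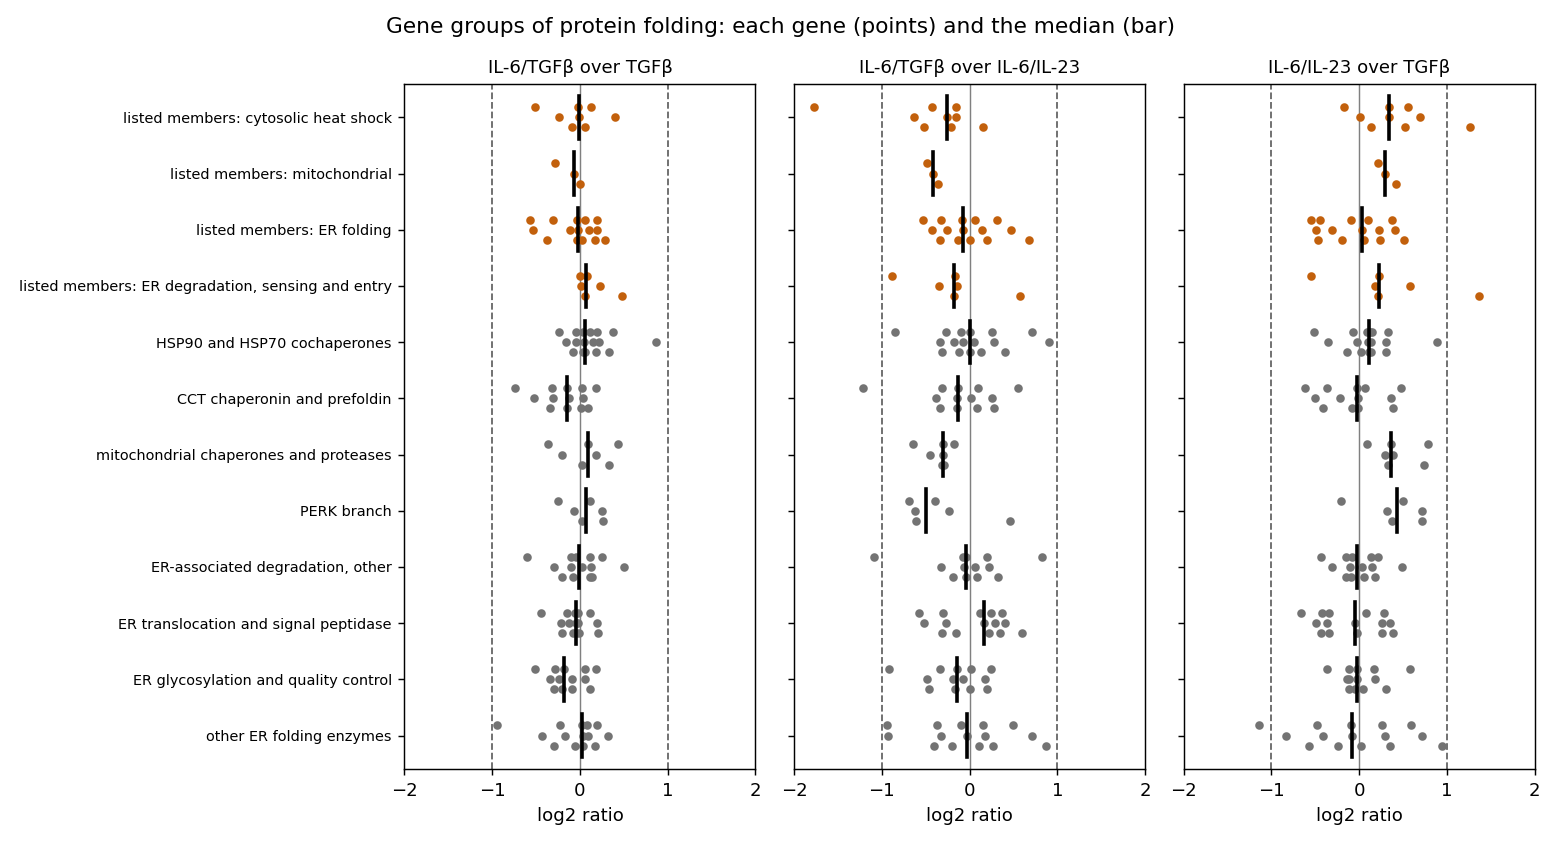
Log2 ratios of the listed members by compartment (orange) and of the other folding lists (grey) in the 3 comparisons, with 1 point per gene above the floor on at least 1 of the arrays compared the median as a bar and 2-fold as dashed lines. All points of both mitochondrial lists and, except Eif2ak3, of the PERK branch lie left of 0 in the middle panel and right of 0 in the right panel.

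Of 5 markers of NK cells and CD8 T cells, 3 were above the floor on each array. Of 8 B cell and plasma cell markers, 4 were with IL-6/TGFβ, 2 with IL-6/IL-23 and 1 with TGFβ, and of 9 myeloid markers 1, 0 and 2. Sums over each list follow, but they include values below the floor, so no order of arrays is read from them. The summed level of the NK and CD8 markers was 245 with IL-6/TGFβ, 387 with IL-6/IL-23 and 413 with TGFβ, and Ncr1 was below the floor on every array. Eomes, a transcription factor gene of these cells, had a ratio of -1.05 for IL-6/TGFβ relative to TGFβ, a bound. Cd28, a costimulatory receptor of T cells, was called higher with IL-6/IL-23 than with TGFβ, at 1.59. The summed level of the myeloid markers was 240.1, 188 and 324, and Lyz2, Cd14 and Itgam were below the floor on every array. Mpeg1, a macrophage gene, was above the floor with TGFβ alone and at least 2.96-fold lower on both other arrays. Sdc1, a plasma cell marker, read 54.4 with IL-6/TGFβ, 84.1 with IL-6/IL-23 and 19.9 with TGFβ. The part of these cells in the chaperone levels was not tested.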

How the data were processed

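Biotinylated cRNA of 3 cultures was measured on Affymetrix arrays, per the labels. The authors deposited an intensity on a linear scale for each probe set. How it was summarized, scaled and corrected for background is not stated. The 64 control probe sets of 45101 were dropped and log2 intensities were quantile-normalized (Python 3.11.15, pandas 2.3.3, numpy 2.4.6), because array medians differed. This removes any true difference in total mRNA. Of 45037 probe sets, 34945 carried 1 gene symbol, 932 several (not used) and 9160 were unnamed here.

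The members and gene lists were chosen with earlier results of these data known. The genes named are all members, list genes and markers past 2-fold, and defining markers, and other list genes were chosen after their values were seen. The probe-set SD came from the median absolute deviation between the brightest probe sets of a gene. With 1 array per condition, no test between conditions was run. The script that makes the calls was tested on simulated data with known changes. Promoters are from the RefSeq table of GRCm38.p6. Planned protein features were not analysed here. Alternatives were other scalings, floors, folds and choices of probe set.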

Additional observations from a re-analysis of the deposited data

How the results depend on the processing

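With 1 array per condition, no replicate was left out, and differences between cultures or arrays have no estimate. No paired analysis was possible because each condition has 1 array. Values near the floor limit Hspa1a, Hspa1b, Bag3, Ern1 and Atf6, and further probe sets that differ limit Hspa4, Hspa8, Dnaja1, Hspe1, Hyou1 and Xbp1, among others.

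Leaving the arrays unscaled moved most results, as their brightness differed. The median ratio of members became -0.40 for IL-6/TGFβ relative to TGFβ, 0.21 for IL-6/TGFβ relative to IL-6/IL-23 and -0.60 for IL-6/IL-23 relative to TGFβ, where all genes had -0.41, 0.42 and -0.83, so the members' excess over all genes was 0.01, -0.20 and 0.23, against -0.02, -0.15 and 0.15 after quantile normalization. Median scaling gave 0.02, -0.25 and 0.30, with medians of all genes at -0.07, -0.20 and 0.12. Unscaled, 1 of 32 members was higher for IL-6/TGFβ relative to IL-6/IL-23 (Dnajb9) and 1 lower (Hspa1b), against 11.92% and 1.42% of all genes. For IL-6/IL-23 relative to TGFβ, 0 of 32 were higher and 6 lower (Canx, Dnajb9, Dnajc3, Hsp90b1, Manf and Xbp1). Of all genes, 0.85% were higher and 34.5% lower in that comparison. All genes then split into 126 higher and 700 lower, 1089 and 130, and 81 and 3283.

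The floor at the 99th percentile left 0 members called in every comparison, of 28, 29 and 29 above it. Of all genes above it, 147 were higher and 98 lower, 230 and 182, and 184 and 187. These were 2.1% and 1.4% of 6875 genes, 3.3% and 2.6% of 7001, and 2.6% and 2.7% of 6962. The floor at the 90th percentile gave 2 of 33 members lower for IL-6/TGFβ relative to IL-6/IL-23 (Hspa1a and Hspa1b), against 3.98% of all genes. Averaging all probe sets gave 2 of 32 lower there (Atf6 and Hspa1b), against 3.61% of all genes. At 1.5-fold, 1 of 33 members was higher and 3 were lower for IL-6/TGFβ relative to IL-6/IL-23, against 10.4% and 11.0% of all genes. All genes split into 757 and 639, 988 and 1043, and 997 and 843 in the 3 comparisons. Without probe sets ending in _s_at or _x_at, chosen after seeing the data, 2 of 32 members were lower for IL-6/TGFβ relative to TGFβ (Hspa8 and Hspe1). For IL-6/IL-23 relative to TGFβ, 1 of 33 was lower (Hspa8). Of all genes, 2.21% and 3.48% were called lower in these comparisons. The cause of each change was not tested. Hspa8, called lower at -1.49 without those probe sets, had 0.81 with median scaling and 0.83 with scaling to the 75th percentile.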
